A study of Mus musculus with 2 samples.

Results

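The genes Nfkbia, Nfkbie, Nfkbiz, Bcl3, Tnfaip3 and Tnip1 encode inhibitors that NF-κB induces and that in turn restrain it. Their loci were examined for NFKB2 and ELF3 binding in cytokine-treated kidney tubule cells. The members are the deposited regions that overlap a window of each gene with about 20 kb on either side, 366 kb in all. The windows held 28 of 14217 NFKB2 regions and 49 of 68319 ELF3 regions.

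CUT&RUN uses an antibody to tether a nuclease to a protein on chromatin, and the DNA cut free around that protein is sequenced. It was performed with antibodies against NFKB2 and against ELF3, 1 library each, on primary renal tubular epithelial cells from kidneys of wild-type mice. Both libraries carry the label batch 1, and in both the cells had received TNFα + IFNγ, 2 inflammatory cytokines. The labels give no dose, duration, strain or age, and no unstimulated cells were analysed here, so the values describe stimulated cells only. IgG served as the negative control of the study, and an IgG list was not analysed here. With 1 library per antibody no difference has a replicate check, and the intervals given cover counting error only.

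NF-κB dimers are held in the cytoplasm by the IκB proteins until a signal such as TNFα leads to their breakdown. The freed dimers then switch on genes of inflammation and, among them, their own inhibitors, which closes a negative feedback loop. IκBα (Nfkbia) and IκBε (Nfkbie) are the inducible cytoplasmic members of this loop. IκBζ (Nfkbiz) and Bcl3 are nuclear relatives that bind NF-κB dimers at chromatin, Bcl3 those of p50 and p52, and can activate as well as repress. A20 (Tnfaip3) is a ubiquitin-editing enzyme that shuts down signalling from the TNF receptor, and ABIN1 (Tnip1) is a ubiquitin-binding partner of A20. NFKB2 is made as a precursor, p100, that is itself IκB-like and is processed to the DNA-binding subunit p52; the labels do not say which form the antibody sees. ELF3 is an ETS factor of epithelia that binds motifs with a GGAA core.

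The promoters of these genes are shown because strong NFKB2 regions lay at the 5′ ends of these genes. RefSeq promoter sequences of GRCm38.p6 were matched by symbol for 5 of the 6 genes, with Nfkbiz not in the table. They were searched on both strands for the κB consensus, for the ETS cores CCGGAA and CAGGAA, and for the AP-1 motif TGANTCA. Each line gives the 250 bases before the annotated start, 5′ to 3′ on the gene's strand, with κB matches in capitals. For Bcl3, whose match lies after the start, it gives the 30 bases from 10 before to 20 after it. The sequences come from chr12:55492648-55492897 (minus strand, Nfkbia), chr17:45555450-45555699 (plus strand, Nfkbie), chr10:19015411-19015660 (minus strand, Tnfaip3), chr11:54962941-54963190 (minus strand, Tnip1) and chr7:19822736-19822765 (minus strand, Bcl3). These are GRCm38.p6 positions and cannot be set beside those of the CUT&RUN regions.
Nfkbia: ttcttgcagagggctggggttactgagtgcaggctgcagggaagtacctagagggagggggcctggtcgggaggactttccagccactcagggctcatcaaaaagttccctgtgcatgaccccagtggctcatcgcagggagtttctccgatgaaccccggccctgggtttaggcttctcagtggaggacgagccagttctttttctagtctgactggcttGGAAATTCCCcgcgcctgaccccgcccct
Nfkbie: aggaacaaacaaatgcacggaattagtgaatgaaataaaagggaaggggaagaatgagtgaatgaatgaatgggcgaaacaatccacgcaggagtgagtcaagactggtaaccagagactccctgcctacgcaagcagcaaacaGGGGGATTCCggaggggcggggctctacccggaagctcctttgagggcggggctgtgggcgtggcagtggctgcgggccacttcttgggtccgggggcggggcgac
Tnfaip3: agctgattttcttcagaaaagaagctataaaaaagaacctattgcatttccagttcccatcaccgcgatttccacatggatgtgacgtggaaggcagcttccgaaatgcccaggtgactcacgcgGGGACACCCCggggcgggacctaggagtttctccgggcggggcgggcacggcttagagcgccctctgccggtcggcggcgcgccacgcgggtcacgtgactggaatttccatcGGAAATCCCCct
Tnip1: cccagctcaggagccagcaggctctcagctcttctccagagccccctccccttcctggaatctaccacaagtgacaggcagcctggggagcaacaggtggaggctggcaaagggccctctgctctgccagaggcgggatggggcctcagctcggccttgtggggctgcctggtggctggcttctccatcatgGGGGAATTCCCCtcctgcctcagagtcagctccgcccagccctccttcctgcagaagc
Bcl3: agtcggcggcagGGGAAGTCCCgctgcccg
A κB match was present in 5 of 5 promoters, searched over 300 bases up to 50 after the start, against 8.46% of 32841 mouse promoter entries of the same length. In Nfkbia it lay 29 to 20 bases before the start, and in Nfkbie 106 to 97 bases before it. Tnfaip3 had 2 matches, the nearer 12 to 3 bases before the start. The run of capitals in Tnip1 holds 3 overlapping matches and reads the same on both strands. In Bcl3 the match lay 3 to 12 bases after the start. ETS cores were found in 3 of the 5 promoters (Nfkbie, Tnip1 and Bcl3; 41.4% of all entries), and 1 of the 2 in Nfkbie overlaps the κB match by 4 bases. AP-1 matches were found in 2 of the 5 (Nfkbie and Tnfaip3; 7.81% of all entries). The genes were chosen as inhibitors that NF-κB induces, so their share of κB matches cannot be read as a result of these data. A match describes letters and is no evidence of binding at that position.

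Both factors were found in all 6 windows, and NFKB2 was listed at 25 of the 49 ELF3 regions there. Of the 28 NFKB2 regions 26 overlapped an ELF3 region (92.9%, 95% interval 76.5 to 99.1), and over the whole list 96.8% did. That is 51.0% of the ELF3 regions (36.3 to 65.6), and over the whole ELF3 list 19.7% overlapped NFKB2. NFKB2 regions stood at 76.5 per Mb in the windows and 5.55 per Mb over autosomes and X. ELF3 regions stood at 134 per Mb in the windows and 26.6 per Mb over autosomes and X. The windows are centred on genes whereas the chromosomes include long stretches without any, so the densities are not like for like. No test of these differences was made, since regions are not replicates. The intervals of both shares treat regions as independent draws, which regions of the same window need not be. They therefore cannot be used to test the windows against the whole lists. Just inside the window edges, in the outer 10 kb, lay 3 NFKB2 regions of 11 to 12 fragments and 15 ELF3 regions of 7 to 29. In the next 10 kb outside lay 7 NFKB2 regions of 16 to 32 fragments and 11 ELF3 regions of 14 to 102. Regions of both factors thus continued past the window edges.

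**Figure D1:**
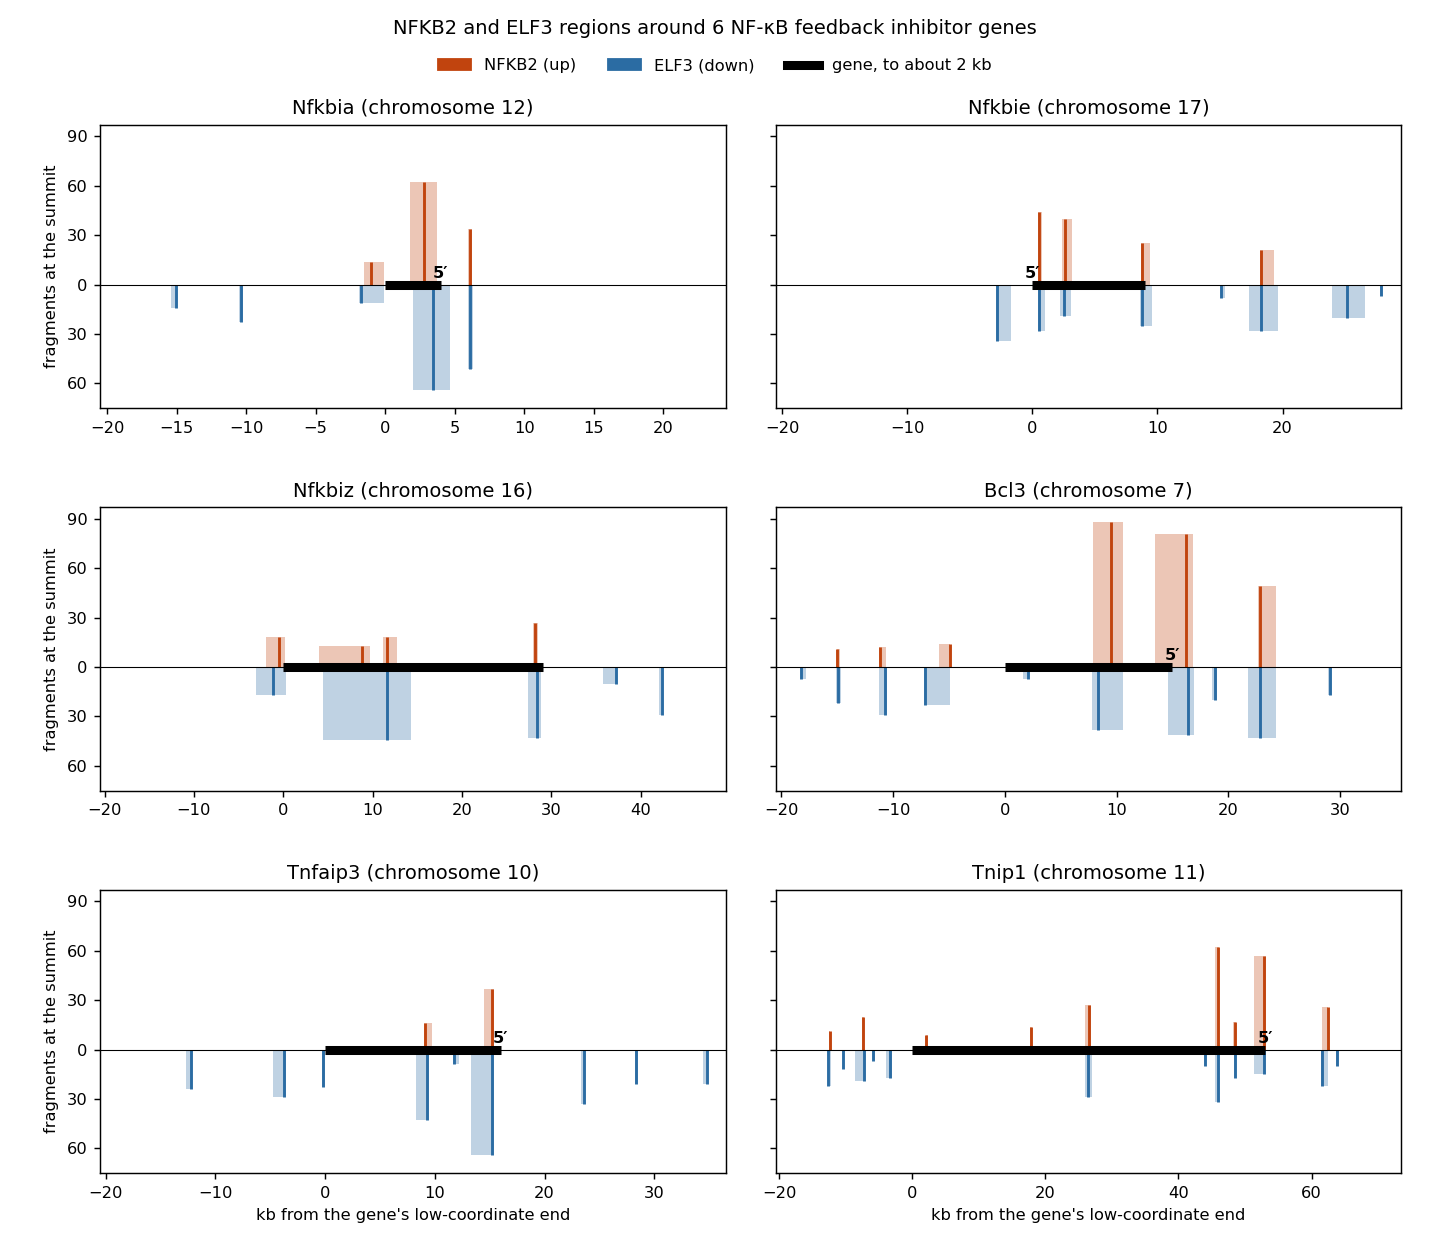
Fragments at the summit of each region (vertical axis, NFKB2 upward and ELF3 downward) against distance in kb from the gene's low-coordinate end (horizontal axis), 1 panel per gene; shaded boxes span the region, lines mark summits, black bars the genes and 5′ the start where the strand is listed. The tallest NFKB2 lines, 88 and 81 fragments, stand in the Bcl3 panel, and in the Tnfaip3 panel 2 NFKB2 regions face 9 ELF3 regions.

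Within their own lists, the NFKB2 regions of these genes stood higher than the ELF3 regions did. A fragment here is a sequenced DNA piece that covers the region's summit, recovered from the deposited scores. The median NFKB2 region held 23 fragments in the windows (quartiles 14 and 41) and 16 in the whole NFKB2 list (13 and 22). For ELF3 the median was 22 in the windows (15 and 29) and also 22 in the whole list (14 and 36). Of the NFKB2 regions, 10 of 28 had more fragments than at least 90% of their list, which 9.33% of the whole list reached. Of the ELF3 regions, 2 of 49 did, with 9.81% over the whole list. Regions were also wide, with a median of 907 bp for NFKB2 (329 bp over the whole list) and 619 bp for ELF3 (418 bp over the whole list). The local background, recovered from the same scores, has a lowest level that most regions share, called the floor. It was at the floor at 19 of the 28 NFKB2 and 36 of the 49 ELF3 regions, and at 70.3% and 70.8% of the whole lists. It was more than 2 times the floor at 3 NFKB2 and 6 ELF3 regions, and its highest values, 3.82 and 4.06 times the floor, were both inside Tnip1. Its part in the fragment counts there was not tested.

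**Figure D2:**
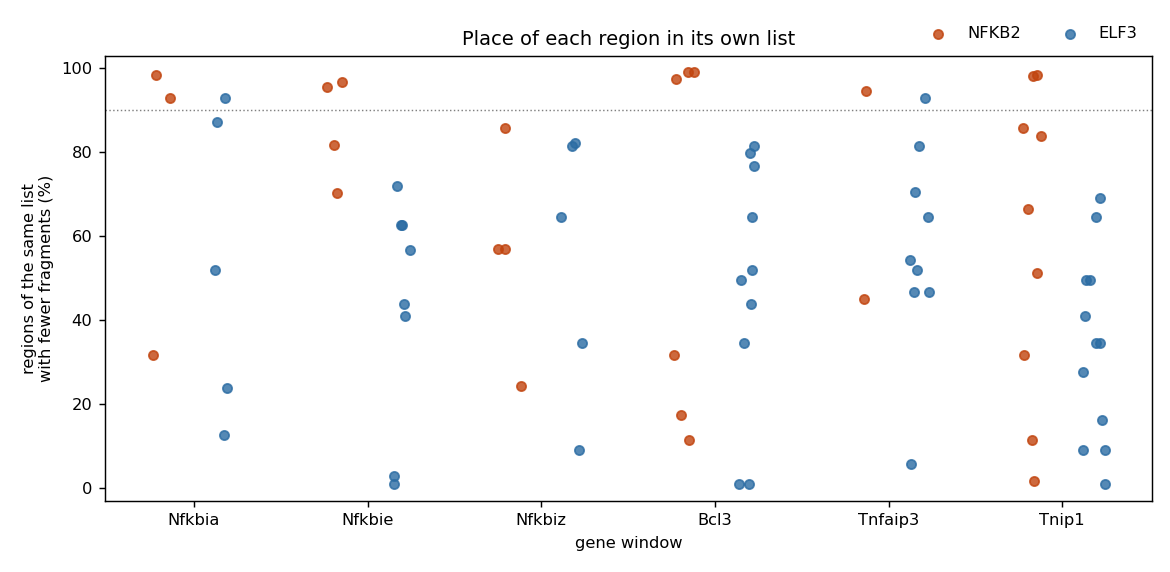
Share of regions in the same list that have fewer fragments (vertical axis, percent) for every NFKB2 (left) and ELF3 (right) region of each gene window (horizontal axis); the dotted line marks 90%. NFKB2 points stand above the line in 5 windows, all but Nfkbiz, and ELF3 points only at Nfkbia and Tnfaip3, with 1 each.

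At each of the 5 genes whose strand is listed, NFKB2 and ELF3 had a region at the 5′ end. Here a region lies at the 5′ end where its summit is within 2 kb of the end that the rule implies, which held for 1 region of each factor per gene. Distances from gene ends are good only to about 2 kb, so the pair about 2.1 kb upstream at Nfkbia and that about 2.6 kb into Nfkbie may count there too. The NFKB2 region at the 5′ end was the strongest of its window at Nfkbia, Nfkbie and Tnfaip3 and the second strongest at Bcl3 and Tnip1. The ELF3 region there was the strongest of its window at Nfkbia and Tnfaip3.

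At the genes of the cytoplasmic inhibitors, 5 of 7 pairs had a ratio of NFKB2 over ELF3 whose interval included 1, with 1 pair above and 1 below. Over all pairs of the series, 0.842% of intervals lay above 1 and 75.2% below. A ratio of 1 marks equal depth-adjusted counts from 2 different antibodies, not equal binding. The Nfkbia window had 3 NFKB2 and 5 ELF3 regions. The main NFKB2 region, on chromosome 12 at 55537802 to 55539748, had 62 fragments (47.5 to 79.5), more than 98.5% of the NFKB2 list. It overlapped the main ELF3 region of the window, 55538017 to 55540634, with 64 fragments (49.3 to 81.7), more than 92.9% of the ELF3 list. The depth-adjusted ratio of NFKB2 over ELF3 there was 0.873 (0.605 to 1.26), so counting error does not separate the factors. Their summits were 662 bp apart, so the counts refer to different positions. A narrow site about 2.1 kb upstream of the 5′ end, at 55541978 to 55542246, had 34 NFKB2 and 51 ELF3 fragments with summits 20 bp apart. Its ratio of 0.601 (0.377 to 0.945) put the ELF3 count above the NFKB2 count by more than counting error. That ratio was still above that of 80.8% of all pairs. Beyond the 3′ end, at 55534480 to 55535893, NFKB2 had 14 fragments and ELF3 11, where the ELF3 background was 3.25 times the floor. The summits there lay 763 bp apart. The remaining ELF3 regions, of 14 and 23 fragments, lay farther downstream without NFKB2.

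The Nfkbie window had 4 NFKB2 regions, of 44, 40, 25 and 21 fragments, and 8 ELF3 regions, of 7 to 34. The strongest NFKB2 region lay at the 5′ end, on chromosome 17 at 45866424 to 45866773. It had 44 fragments (32.0 to 59.1) against 28 for ELF3 (18.6 to 40.5), with summits 10 bp apart. The ratio there was 1.42 (0.862 to 2.36), so the counts do not separate the factors beyond counting error. The next region, at 45868347 to 45869203 about 2.6 kb into the gene, had 40 fragments for NFKB2 against 19 for ELF3. Its ratio of 1.90 (1.07 to 3.47) put the NFKB2 count above the ELF3 count by more than counting error. At the 3′ end of Nfkbie by the rule, 45874670 to 45875432, both factors had 25 fragments. The background there was 1.53 times the floor for NFKB2 and 3.25 times for ELF3. The annotated gene is 7.47 kb long against 9 kb by the rule, so this region, counted over the gene, may lie beyond its end. The strongest ELF3 region of the window, 34 fragments at 45863107 to 45864313 just upstream of the 5′ end, had no NFKB2 region. The genes Tcte1, Tmem151b, Slc35b2 and Hsp90ab1 lie within 20 kb of Nfkbie in GRCm38.p6, so the flanks hold other genes. The NFKB2 region in the downstream flank, at 45884193 to 45885284, had 21 fragments and 28 for ELF3. The background there was 2.29 times the floor for NFKB2 and 2.43 times for ELF3.

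The nuclear inhibitors differed from each other, with the strongest NFKB2 regions of all 6 windows at Bcl3. The strongest at Nfkbiz had 27 fragments, still more than 85.8% of the NFKB2 list. Bcl3 had 6 NFKB2 and 10 ELF3 regions. Inside the gene, on chromosome 7 at 19549906 to 19552624, the NFKB2 count was 88 (70.6 to 108), more than 99.2% of its list, and the ELF3 count 38 (26.9 to 52.2). The ratio was 2.09 (1.41 to 3.14), but the summits were 1148 bp apart within the shared stretch, so the counts refer to different positions. At the 5′ end, 19555425 to 19558840, NFKB2 had 81 fragments (64.3 to 101) and ELF3 41 (29.4 to 55.6), with summits 133 bp apart and a ratio of 1.78 (1.21 to 2.66). The NFKB2 background was 1.53 times the floor at this region and at the floor inside the gene. About 7.8 kb upstream, at 19564666 to 19566290, the counts were 49 for NFKB2 and 43 for ELF3 with summits 22 bp apart, and the ratio was 1.03 (0.668 to 1.58). These 3 sites carried the high NFKB2 counts of the window. The 3 NFKB2 regions beyond the 3′ end had 11, 12 and 14 fragments, against 22, 29 and 23 for ELF3. The intervals of the ratio lay below 1 at the first 2, and the third had 0.548 (0.261 to 1.11) with summits 2190 bp apart. Cblc, a gene of a ubiquitin ligase, lies within 20 kb of Bcl3 in GRCm38.p6.

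The Nfkbiz window had 4 NFKB2 regions of 13 to 27 fragments and 5 ELF3 regions of 10 to 44. An ELF3 region of 9782 bp, the widest in the 6 windows, covered chromosome 16 at 55635465 to 55645246 inside the gene with 44 fragments at its summit. It contained 1 NFKB2 region whole and most of another, of 18 and 13 fragments. The weaker of these had its summit 2834 bp from that of ELF3 and a ratio of 0.266 (0.132 to 0.503). The stronger, at 55642101 to 55643761, had its summit 8 bp from that of ELF3 and a ratio of 0.369 (0.200 to 0.651). That ratio was above 50.6% of all pairs. The NFKB2 background there was 1.53 times the floor, with that of ELF3 at the floor. Near the high-coordinate end of the gene, 55658985 to 55659472, there were 27 fragments for NFKB2 against 43 for ELF3. That gave a ratio of 0.566 (0.336 to 0.937), above that of 78.6% of all pairs. The background there was 1.28 times the floor for NFKB2 and 2.43 times for ELF3. At the low-coordinate end, 55629050 to 55631217, the counts were 18 for NFKB2 and 17 for ELF3. The NFKB2 background was 2.29 times the floor at this end, with that of ELF3 at the floor. The part of background in the ratios of this window was not tested. The summits at this end lay 676 bp apart, so the counts refer to different positions. The ratio at this end, 0.954 (0.464 to 1.97), does not separate the factors and is 1.06 without the depth adjustment. Nxpe3 lies within 20 kb of Nfkbiz in GRCm38.p6.

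The genes of the ubiquitin-directed inhibitors were also unlike each other. The Tnfaip3 window had 9 ELF3 regions and only 2 NFKB2 regions, both over the gene. At the 5′ end of A20, on chromosome 10 at 18890472 to 18891428, NFKB2 had 37 fragments (26.1 to 51.0) and ELF3 64 (49.3 to 81.7), with summits 30 bp apart. The ratio was 0.521 (0.338 to 0.793), above that of 74.2% of all pairs. This NFKB2 region still stood above 94.5% of its own list, as ELF3 stood above 92.9% of its own. Inside the gene, at 18885045 to 18885770, 16 fragments for NFKB2 stood against 43 for ELF3. The ratio of 0.335 (0.176 to 0.607) was above that of 43.8% of all pairs. ELF3 was listed without NFKB2 at 7 regions of 9 to 33 fragments, 3 of them upstream of the gene and 3 downstream. No other protein-coding gene lies within 20 kb of Tnfaip3 or of Nfkbia in GRCm38.p6.

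The Tnip1 window, the longest with 93 kb, had 9 NFKB2 and 12 ELF3 regions. Per 100 kb that is 9.68 for NFKB2 and 12.9 for ELF3, below the 10.9 and 18.2 at Bcl3. At the 5′ end of ABIN1, on chromosome 11 at 54852332 to 54854121, NFKB2 had 57 fragments (43.2 to 73.9) and ELF3 15 (8.40 to 24.7). The summits lay 5 bp apart. The ratio of 3.42 (1.91 to 6.51) was the highest in the 6 windows and above that of 99.9% of all pairs in the series. This region had been singled out by its ratio in an earlier look at these data, so its size is a description. About 7.1 kb into the gene, at 54846521 to 54847062, the counts were 62 for NFKB2 (47.5 to 79.5) and 32 for ELF3 (21.9 to 45.2), and the ratio was 1.75 (1.12 to 2.76). The local background was raised there in both libraries, 3.82 times the floor for NFKB2 and 4.06 times for ELF3. The window also held both NFKB2 regions without ELF3. They lay inside the gene, at 54818714 to 54818970 with 14 fragments (7.65 to 23.5) and at 54803116 to 54803437 with 9 (4.12 to 17.1). At the remaining 5 shared sites, NFKB2 had 11 to 27 fragments and ELF3 17 to 29, with summits up to 792 bp apart. Gpx3 and Anxa6 lie within 20 kb of Tnip1 in GRCm38.p6.

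Every shared NFKB2 region formed a pair with an overlapping ELF3 region, the strongest one where several overlapped, which gave 26 pairs. The median ratio of NFKB2 over ELF3 was 0.887 (quartiles 0.528 and 1.13) in the 6 windows and 0.365 (0.256 and 0.528) over all 13769 pairs of the series. NFKB2 was the higher factor in 9 of 26 pairs, against 4.95% of all pairs. It was more than 2-fold higher in 2 of 26 pairs (0.407% of all pairs) and more than 2-fold lower in 6 (71.8% of all pairs). The 2 higher pairs are the 5′ end of Tnip1, singled out earlier by its ratio, and the pair inside Bcl3 whose summits lie 1148 bp apart. The interval of the ratio lay above 1 in 5 of 26 pairs (0.842% of all pairs) and below 1 in 9 (75.2% of all pairs). The ratio rises with its own numerator, so strong NFKB2 regions were also described among themselves. Among pairs with at least 30 NFKB2 fragments, NFKB2 was higher in 7 of 10 in the windows and in 18.5% of all 1438. The median ratio of those pairs was 1.58 in the windows and 0.517 over the series. With at least 50 NFKB2 fragments the gap was smaller, with NFKB2 higher in 4 of 5 pairs in the windows and in 45.4% of all 317. The medians there were 1.78 in the windows and 0.901 over the series. Neither limit matches the windows' pairs to the series in strength, as 5 of their 10 pairs over the lower limit also pass the higher one, against 317 of 1438.

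**Figure D3:**
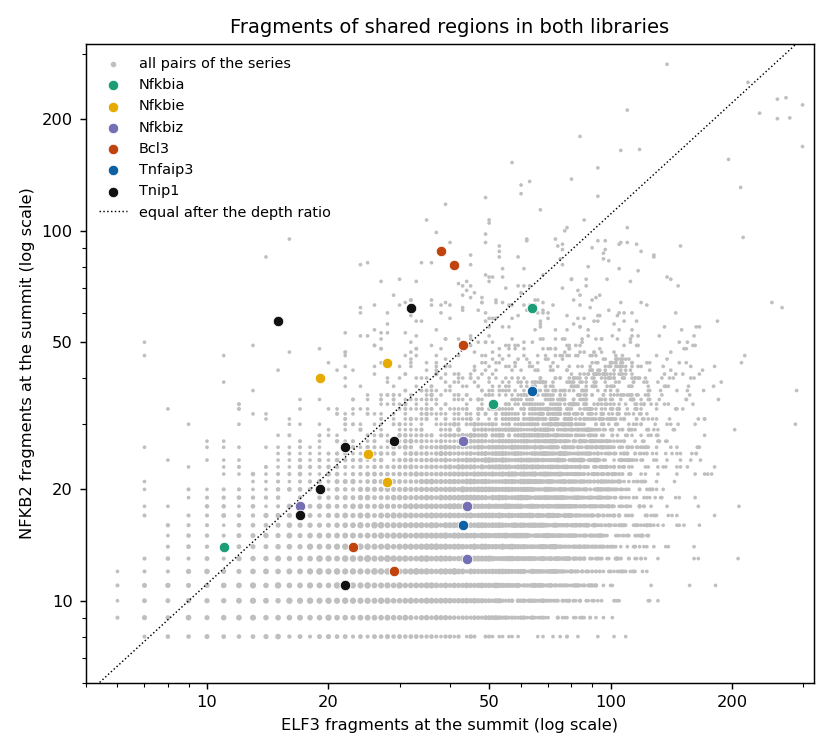
NFKB2 fragments (vertical axis, log scale) against ELF3 fragments (horizontal axis, log scale) at the summits of shared regions; grey points are all pairs of the series up to 300 fragments, larger where more pairs coincide, and coloured points the 26 pairs of the 6 windows. Points above the dotted line, where counts are equal after the depth ratio of 1.11, belong to Bcl3, Nfkbie, Tnip1 and Nfkbia.

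Ratios varied both between and within genes. Pairs with an interval above 1 were found at Bcl3 (2), Tnip1 (2) and Nfkbie (1). Bcl3 also had 2 pairs with an interval below 1, Tnip1 1 and Nfkbia 1. At Nfkbiz and Tnfaip3 the interval lay below 1 in 5 of 6 pairs, beside 75.2% of all pairs of the series. Of these 5 pairs, 2 share 1 ELF3 region at Nfkbiz, and the weaker of them has summits 2834 bp apart. The remaining pair, at the low-coordinate end of Nfkbiz, had summits 676 bp apart. Its ratio was 0.954 with the depth ratio and 1.06 without it. The median ratio was 1.16 over the 4 pairs at Nfkbie, 0.948 over 7 at Tnip1, 0.873 over 3 at Nfkbia, 0.788 over 6 at Bcl3, 0.467 over 4 at Nfkbiz and 0.428 over 2 at Tnfaip3. Within Bcl3 the ratios ran from 0.373 to 2.09 and within Tnip1 from 0.450 to 3.42. Medians vary less than single ratios by construction, so these ranges cannot be set against that of the medians. Pairs with the NFKB2 summit over the gene had a median ratio of 0.887 (14 pairs), and those in the flanks had 0.812 (12 pairs).

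**Figure D4:**
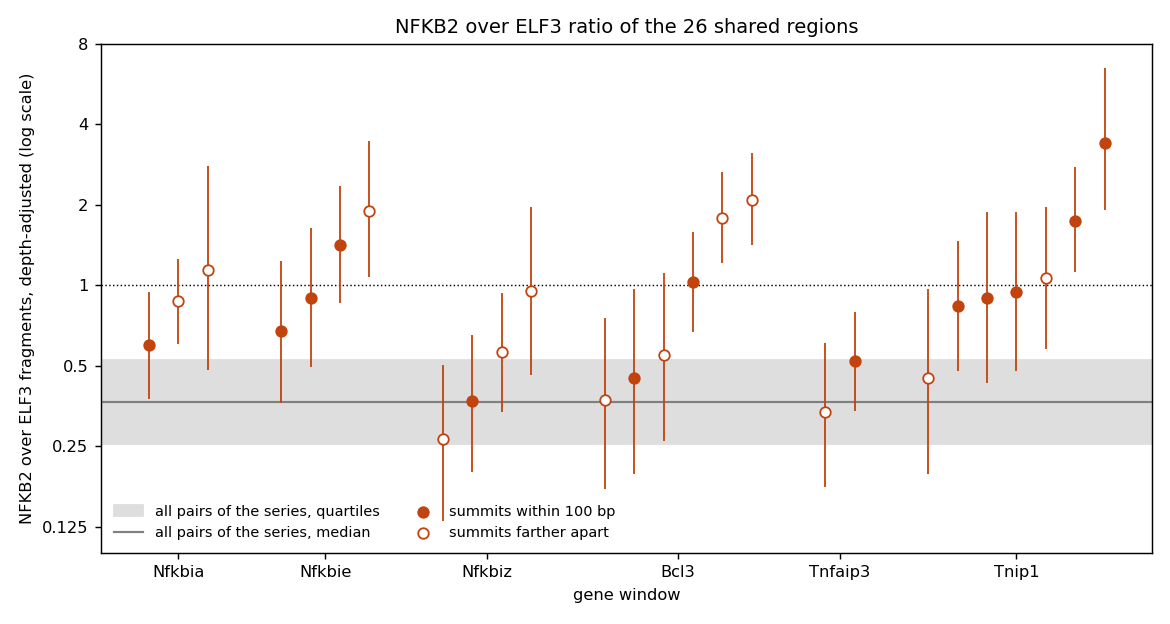
Depth-adjusted ratio of NFKB2 over ELF3 fragments (vertical axis, log scale) for the 26 pairs, by gene (horizontal axis), with exact 95% intervals for counting error; filled points have summits within 100 bp, the grey band and line are the quartiles and median of all pairs. The points of Nfkbiz and Tnfaip3 lie below 1, the nearest at 0.954 with an interval that includes 1, and the highest point, 3.42, is at Tnip1.

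Summits of the 2 factors coincided less closely here than in most shared regions. They lay within 100 bp in 13 of 26 pairs, against 75.5% of all pairs, with a median distance of 106 bp against 41 bp. The distances ran from 5 bp at the 5′ end of Tnip1 to 2834 bp at Nfkbiz. Where summits lie far apart, the counts of a pair, and so its ratio, refer to different positions. The regions in the windows were also wider than those of the whole lists, and the part of width in the distances was not tested.

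Pooled over the 6 windows, NFKB2 regions were denser over the genes than in the flanks, and ELF3 densities were close in both places. Over the genes stood 16 NFKB2 regions (12.7 per 100 kb), with 12 in the flanks (5.00 per 100 kb). Over the genes stood 16 ELF3 regions as well (12.7 per 100 kb), with 33 in the flanks (13.8 per 100 kb). Single genes differed from the pool. Bcl3 had 1 NFKB2 region in its 15 kb of gene and 5 in its flanks. ELF3 had 3 regions in the 9 kb of Nfkbie and 5 in its flanks, and 3 in the 16 kb of Tnfaip3 and 6 in its flanks. Tnip1 alone makes up 53 of the 126 kb of genes. Of the ELF3 regions over the genes 13 of 16 overlapped NFKB2, and of those in the flanks 12 of 33. The 25 ELF3 regions with NFKB2 had a median of 28 fragments (range 11 to 64) and of 1322 bp. The 24 without NFKB2 had a median of 17 fragments (7 to 34) and of 408 bp. Over the whole list the medians were 43 fragments with NFKB2 and 19 without. The strongest ELF3 region without NFKB2 had 34 fragments at Nfkbie, 33 at Tnfaip3, 29 at Nfkbiz, 23 at Nfkbia, 20 at Bcl3 and 17 at Tnip1. The fewest fragments listed at the floor were 8 for NFKB2 and 6 for ELF3, so a region without a listed partner may still hold weak signal.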

How the data were processed

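CUT&RUN region lists of 2 libraries were used, 1 for NFKB2 and 1 for ELF3. Per the submitters' processing notes MACS2 made the region calls, 1 list for each library; the sources used here give no version, settings, control or aligner. The deposited fold column is a ratio, that of the signal at the summit over its local background. The deposited columns of −log10 p and of −log10 q describe the summit too, and the deposited score is 10 times −log10 q cut to a whole number (99.98% of the regions in each list).

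The notes name mm10, but both lists hold the sequence names MU069434v1 and MU069435v1, which belong to GRCm39. Coordinates are printed as deposited, 1-based. The 6 windows came from a written rule in whole kb. The annotation at hand is of GRCm38.p6 (RefSeq) and gave only gene names, lengths, strands and promoters. The rule's genes were 0.637 to 1.53 kb longer than the annotated ones. A planned list of other pathway genes needs an annotation of the files' build and was not run. Members and lists were chosen with earlier results of these data known.

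Fragments at each summit were recovered from fold and −log10 p, which together fix a whole number of fragments under the caller's Poisson model. Solutions that met the deposited −log10 p to within 0.01, or 0.01% of values over 100, were found for 99.95% of NFKB2 and 100% of ELF3 regions, and for all regions in the windows. On simulated regions the recovery returned the fragments of 99.95% of 14214 (NFKB2) and 100% of 68297 (ELF3). The simulated scores were made under that same model, so this checks the calculation and not the model or the depth ratio. Mean coverage was not measured from reads but inferred from the deposited scores, as the floor background expressed in fragments. It was 1.36 fragments for NFKB2 and 1.22 for ELF3, and ratios were divided by the depth ratio of 1.11. Intervals at 95% are exact Poisson for fragments and exact binomial (Clopper-Pearson) for shares and ratios. An overlap of 1 bp or more made regions shared. No p-value was computed, because each antibody has 1 library and regions are not replicates. By the naming rule, NFKB2 regions, their ELF3 partners and the strongest ELF3 regions of each window are described, the rest by counts and ranges. Python 3.11.15 and scipy 1.17.1 were used.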

Additional observations from a re-analysis of the deposited data

How the results depend on the processing

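The alternatives were chosen with earlier results of these data known. The windows' 49 ELF3 regions stayed within 1.5 times of that number under every setting run, from 34 with 10 kb flanks to 49. The 28 NFKB2 regions numbered 24 at −log10 q of 5 or more, 25 with 10 kb flanks and 19 at the floor, but 15 at −log10 q of 10 or more, since weaker regions drop out by construction. The NFKB2 share on ELF3, 92.9%, was 68.4% when only floor regions of either list counted, and 46.4% when summits had to lie within 100 bp. The ELF3 share with NFKB2, 51.0%, was 36.1% and 26.5% under the same settings, which shorten the lists or are stricter by construction. That ELF3 share was 38.9% at −log10 q of 10 or more, and rose to 64.7% with 10 kb flanks, so it depends on the flank. The median ratio of 0.887 ran from 0.839 at the floor to 0.988 at −log10 q of 10 or more, and was 0.984 without the depth ratio. Of 33 such values 28 stayed within their limits, and of 114 values for single genes 99 did. The highest ratio at Tnip1 was 1.75 at −log10 q of 10 or more, where the ELF3 region at the 5′ end is left out, and that at Bcl3 was 1.03 with summits within 100 bp. No paired analysis was possible because each antibody has 1 library. Counts of 11 to 88 fragments limit each ratio: every 95% interval of the 26 pairs spans a factor of more than 2.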
